A study of Homo sapiens with 6 samples.

Results

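Sterol regulatory element-binding proteins (SREBPs) and liver X receptors (LXRs) are the transcription factors that set how much cholesterol and fatty acid a cell makes, takes up and exports. The 8 genes described here are SREBF1, SREBF2, SCAP, INSIG1 and INSIG2, called the SREBP arm, and MYLIP, NR1H2 and NR1H3, called the LXR arm. They were chosen by name from the 26410 rows of the count table, and all 8 were found there. All 8 also passed the filter on low counts, which left 13014 genes to test. Of the arms' genes only MYLIP acts directly on lipoprotein uptake, and the receptors themselves are not among the 8.

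The cells were Kasumi-1, a line from a human acute myeloid leukaemia that carries the RUNX1::RUNX1T1 fusion, and RNA was sequenced. There were 3 libraries from cells given a lentiviral hairpin against PHF19 (shPHF19) and 3 from control cells. PHF19 is an accessory protein of the Polycomb repressive complex PRC2, and the comparison asks what its silencing does to transcript levels. Both groups passed through transduction and selection in puromycin at 2 µg/ml, started 48 h after the hairpins were given and kept up for at least 24 h, and were grown with 10% serum, a source of lipoproteins. The control samples carry the treatment label WT, whereas the series title and the protocol name a scrambled hairpin. The vector also encodes a green fluorescent protein and puromycin resistance, and neither the hairpin sequence nor the number of hairpins used is given in the labels. Whether replicates are separate cultures is not stated in the labels, so p-values reflect only the spread between these samples, possibly a technical one.

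Total counts were 14663463 to 16615143 in shPHF19 libraries and 14229878 to 15961787 in control libraries. PHF19 itself averaged 37.0 ± 4.04 CPM in shPHF19 cells and 185 ± 16.1 CPM in control cells (CPM, counts scaled to library size with TMM factors; SD, n = 3 each). Its values did not overlap between the groups. Of 7 listed myeloblast markers, KIT, CD34, MPO, RUNX1 and RUNX1T1 were each above 100 CPM on average in both groups, CD33 was at 82.2 CPM in shPHF19 cells and 39.9 CPM in control cells, and ANPEP at 21.4 and 33.3 CPM in the same order. CD34, MPO, CD33 and RUNX1 were called higher, ANPEP and RUNX1T1 lower, and KIT was not called. The 4 erythroid markers summed to at most 0.688 CPM in shPHF19 libraries and 0.825 CPM in control libraries, and the 3 fibroblast markers to at most 2.34 and 2.15 CPM in the same order of groups. CD3D, a T cell marker, stood at 48.8 ± 1.97 CPM in shPHF19 cells and 33.2 ± 2.75 CPM in control cells. EPCAM, an epithelial one, stood at 84.7 ± 8.43 and 56.8 ± 7.88 CPM in the same order (SD, n = 3 each for both). Both were above the other listed T cell, B cell, epithelial, fibroblast and erythroid markers. Monocyte and macrophage markers, some of them above CD3D in control cells, are described further below.

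SREBPs are made as membrane proteins of the endoplasmic reticulum. SCAP, the sterol sensor, escorts them to the Golgi apparatus, where the proteases encoded by MBTPS1 and MBTPS2 release the part that enters the nucleus and activates genes of lipid synthesis and lipoprotein uptake. When sterols are plentiful, the INSIG proteins hold SCAP and its cargo back. LXRs work the other way: they bind oxysterols, pair with retinoid X receptors and activate genes of cholesterol export, and they also induce MYLIP (also called IDOL), a ubiquitin ligase that marks lipoprotein receptors for degradation. SREBF1 is itself a known LXR target, so the arms are linked.

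The SREBP arm was mostly higher in shPHF19 cells, and its exception was INSIG2. Of its 5 genes, 4 rose (SREBF1, SREBF2, SCAP and INSIG1) and 1 fell (INSIG2). The LXR arm moved in both directions, with NR1H2 higher, MYLIP lower and NR1H3 not called. In all, 5 genes were called higher and 2 lower (adjusted p under 0.05, quasi-likelihood test of edgeR). Most of the transcriptome was called in this comparison (60.2% of genes tested, 29.4% higher and 30.9% lower, or 3820 and 4015 genes; 2590 and 5624 when scaled by library totals only), so 7 calls among 8 genes do not set these genes apart. The values of the groups did not overlap for 7 of the 8 genes either, beside 63.5% of genes tested (30.9% with all shPHF19 values higher and 32.6% with all lower). The median log2 fold change was 0.70 over the SREBP arm and 0.07 over the LXR arm, beside -0.03 over all genes tested. The difference between the arms was not tested.

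**Figure D1:**
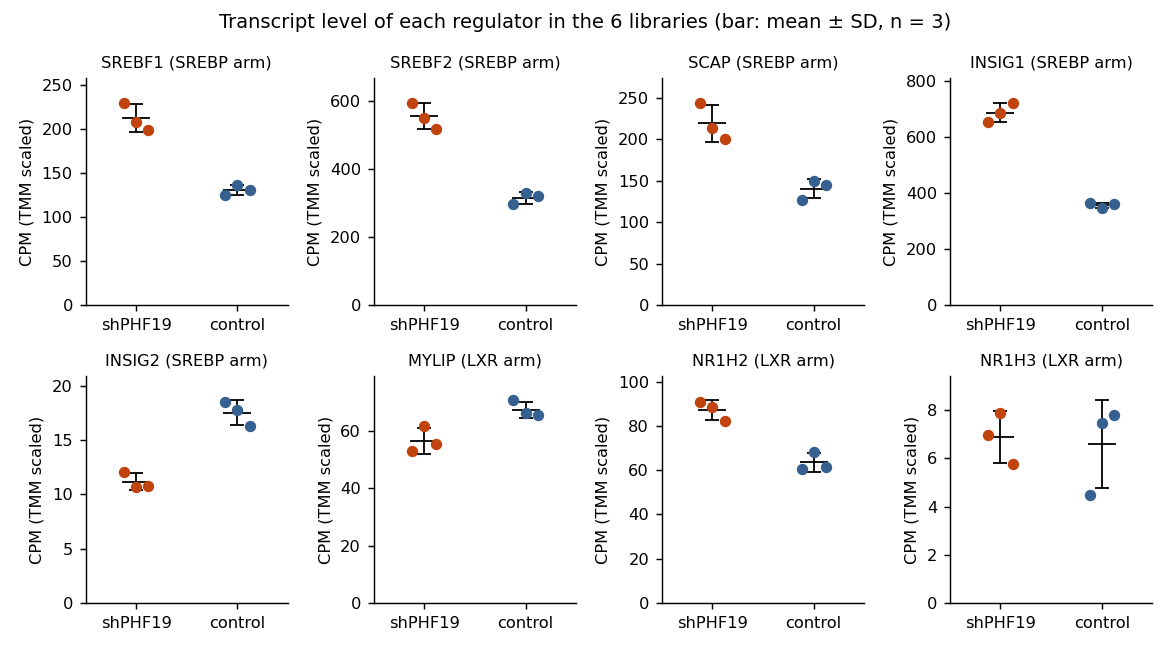
CPM (TMM scaled) of the 8 regulators in the 3 shPHF19 libraries (left in each panel) and the 3 control libraries (right); points are libraries and bars are mean ± SD. The groups do not overlap for any gene but NR1H3, and INSIG2 and MYLIP are the genes that sit lower in shPHF19 cells.

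Promoter sequence is shown for SREBF2, INSIG1 and INSIG2, because SREBF2 is a master regulator that rose and the INSIG paralogues changed in opposite directions. The lines give the 250 bases before the RefSeq start (GRCh38.p14, 5′ to 3′ on the gene's own strand), and all 3 genes lie on the plus strand. Capitals mark a sterol regulatory element (SRE, searched as TCACNCCAC), a CCAAT box (CCAAT, which reads ATTGG on the other strand) or an E-box (CACGTG).
SREBF2, chr22:41832855-41833104: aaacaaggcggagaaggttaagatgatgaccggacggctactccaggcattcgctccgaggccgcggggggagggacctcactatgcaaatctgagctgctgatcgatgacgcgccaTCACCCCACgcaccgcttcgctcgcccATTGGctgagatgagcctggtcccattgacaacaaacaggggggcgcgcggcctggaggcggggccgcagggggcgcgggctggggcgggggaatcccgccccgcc
INSIG1, chr7:155297628-155297877: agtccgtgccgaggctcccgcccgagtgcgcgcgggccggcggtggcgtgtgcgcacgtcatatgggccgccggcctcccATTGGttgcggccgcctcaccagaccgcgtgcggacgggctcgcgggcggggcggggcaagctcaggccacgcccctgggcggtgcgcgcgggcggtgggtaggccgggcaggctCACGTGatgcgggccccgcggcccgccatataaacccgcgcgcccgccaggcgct
INSIG2, chr2:118088221-118088470: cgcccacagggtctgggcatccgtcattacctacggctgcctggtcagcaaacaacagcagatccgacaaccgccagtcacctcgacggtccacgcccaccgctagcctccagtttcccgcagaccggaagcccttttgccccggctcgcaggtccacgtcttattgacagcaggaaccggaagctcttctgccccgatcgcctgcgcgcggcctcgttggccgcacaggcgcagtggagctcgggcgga

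In SREBF2 the SRE letters stood at positions -133 to -125 from the start and a CCAAT box at -106 to -102. SREBPs are known to act beside NF-Y, the factor that binds CCAAT, and to bind the promoter of SREBF2 itself. INSIG1 had a CCAAT box at -170 to -166 and an E-box at -55 to -50, and INSIG2 had neither in either of its 2 annotated windows. The search covered both strands from 250 bases before to 50 bases after each start. The SRE letters were in 1.13% of all 35116 such RefSeq windows, a CCAAT box in 34.6% and an E-box in 7.26%. Among the 8 genes, only SREBF2 had the SRE letters in a window. CCAAT was found for SREBF2, INSIG1, MYLIP (2 matches) and 1 of 4 NR1H3 windows, and the E-box for INSIG1 and SCAP. The direct repeat that LXRs bind, known as DR4 (in 0.0854% of windows with the first base of each repeat left free), was found for none of the 8. The GC box GGGCGG, in 45.0% of windows, was found for all 8. A match describes the letters only, and no match says only that these letters are not in this window.

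SREBF2 encodes SREBP-2, the main activator of cholesterol synthesis genes. Its level was 595, 550.3 and 518 CPM in shPHF19 libraries, against 296, 329.7 and 320.1 CPM in control libraries. Every shPHF19 library was above every control library. SREBF2 was thus higher by a log2 fold change of 0.81 (SE 0.0819; 1.76-fold higher; edgeR adjusted p = 5.35e-12). The gene lies on the plus strand of chromosome 22 (41833079 to 41907308, GRCh38, GENCODE 29, as for the other genes below).

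SREBF1 encodes SREBP-1, whose isoforms mainly activate fatty acid synthesis genes. It stood at 230.2, 208 and 199.6 CPM in shPHF19 libraries, against 126, 136 and 131 CPM in control libraries, again without overlap. The log2 fold change was 0.70 (SE 0.0845; 1.62-fold higher; edgeR adjusted p = 8.49e-10). The counts are summed per gene, so SREBP-1a and SREBP-1c cannot be told apart. SREBF1 (minus strand of chromosome 17, 17810399 to 17837002) shares exonic sequence with RAI1 on the opposite strand, and the strand setting of the counting is unknown here. RAI1 was called lower, at 40.8 ± 1.58 CPM in shPHF19 cells and 49.4 ± 6.32 CPM in control cells (log2 fold change -0.28; SD, n = 3 each), a call lost, among other settings, without shPHF19 replicate 2 (-0.24), control replicate 2 (-0.21) or control replicate 3 (-0.22), and with no filter on low counts (-0.25). In bulk libraries such as these, fewer cells holding a transcript and less of it per cell cannot be told apart.

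The 2 SREBF genes each host a member of the miR-33 family, which in humans is known to repress ABCA1 and other cholesterol export genes. The hairpin of miR-33a lies on the strand of SREBF2 and that of miR-33b on the strand of SREBF1, each outside the exons of the host in the GENCODE basic set. The mature 5p sequences are printed because they show one shared seed (bases 2 to 8, in capitals; RefSeq, GRCh38.p14).
miR-33a-5p, chr22:41900949-41900969, plus strand: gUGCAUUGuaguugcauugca
miR-33b-5p, chr17:17813897-17813916, minus strand: gUGCAUUGcuguugcauugc
They differ at 2 of the 20 bases they share in length. The row for MIR33A held 0 counts in all 6 libraries, and that for MIR33B held 0 in shPHF19 libraries and 3 in control libraries. These rows do not measure the mature miRNAs, and only the host transcripts are described here.

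SCAP rose with the SREBF genes. It stood at 244, 214 and 201 CPM in shPHF19 libraries, against 127, 149 and 145 CPM in control libraries. The lowest shPHF19 value was above the highest control value. SCAP lies on the minus strand of chromosome 3 (47413694 to 47477126). Its log2 fold change was 0.64 (SE 0.0876; 1.56-fold higher; edgeR adjusted p = 1.68e-08).

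INSIG1, the INSIG whose transcript SREBPs are known to induce, had the largest rise of the 8. It was at 653, 686 and 722 CPM in shPHF19 libraries, against 363, 346 and 359 CPM in control libraries. This was a log2 fold change of 0.95 (SE 0.0800; 1.93-fold higher; edgeR adjusted p = 2.31e-14). Of all genes tested, 6.81% had a larger rise. No shPHF19 value overlapped a control value. INSIG1 lies on the plus strand of chromosome 7 (155297776 to 155310235).

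INSIG2, the paralogue that is known to depend less on SREBPs, went the opposite way. It had 12.0, 10.7 and 10.8 CPM in shPHF19 libraries, against 18.5, 17.7 and 16.3 CPM in control libraries. All shPHF19 values were below all control values. INSIG2 lies on the plus strand of chromosome 2 (118088452 to 118110997). The log2 fold change was -0.65 (SE 0.151; 1.57-fold lower; edgeR adjusted p = 0.000247). It was a much rarer transcript, with 157 to 165 counts in shPHF19 libraries and 251 to 301 counts in control libraries.

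The INSIG paralogues therefore differed more in ratio than either did in level. Counts of INSIG1 over INSIG2 within a library were 54.1, 63.9 and 66.6 in shPHF19 libraries, against 19.57, 19.45 and 22.03 in control libraries. This ratio does not depend on how libraries are scaled, and it was 3.02-fold higher in shPHF19 cells (log2 difference 1.59, SE 0.109). An exact permutation test gave p = 0.1, the smallest that 3 against 3 libraries allows (2-sided; 0.15 adjusted over 3 ratios). Per length of exon sequence, INSIG2 made up 1.49 ± 0.165% of INSIG transcript in shPHF19 cells and 4.35 ± 0.288% in control cells (SD, n = 3 each). This share, and the other sums within a library below, were chosen after the values were seen.

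The SREBF ratio had a smaller difference. SREBF1 over SREBF2 was 0.387, 0.379 and 0.385 in shPHF19 libraries, against 0.424, 0.414 and 0.409 in control libraries. The groups did not overlap, and the log2 difference was -0.12 (SE 0.0187; exact permutation p = 0.1, adjusted 0.15). Per length, SREBF1 made up 26.5 ± 0.227% of SREBF transcript in shPHF19 cells and 28.1 ± 0.387% in control cells (SD, n = 3 each).

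**Figure D2:**
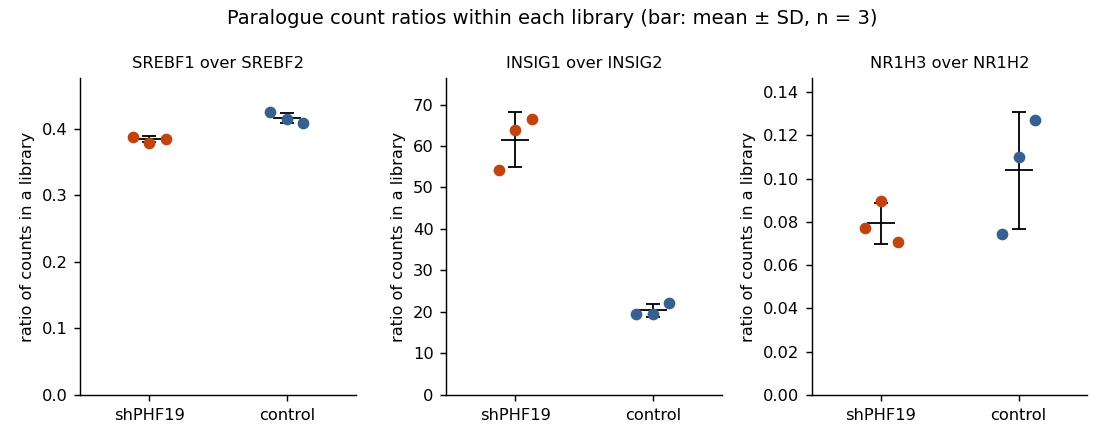
Ratio of counts between paralogues within each library, for 3 shPHF19 libraries (left in each panel) and 3 control libraries (right); points are libraries and bars are mean ± SD. INSIG1 over INSIG2 sits at 54.1 to 66.6 in shPHF19 libraries and 19.45 to 22.03 in control libraries, while NR1H3 over NR1H2 overlaps between the groups.

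The sums of the pairs were also set against SCAP, within each library and with no test. SREBF1 plus SREBF2 per SCAP, per length, was 2.83, 2.97 and 2.99 in shPHF19 libraries, against 2.77, 2.61 and 2.59 in control libraries. The shPHF19 values were all higher, by 1.10 times on average. INSIG1 plus INSIG2 per SCAP was 4.79, 5.73 and 6.42 in shPHF19 libraries, against 5.26, 4.27 and 4.54 in control libraries, and these overlapped.

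NR1H2 encodes LXR-beta, the LXR present in most cell types. It was at 90.6, 88.4 and 82.1 CPM in shPHF19 libraries, against 60.7, 68.4 and 61.4 CPM in control libraries, with no overlap. The gene lies on the plus strand of chromosome 19 (50329653 to 50382982). NR1H2 had a log2 fold change of 0.45 (SE 0.0939; 1.37-fold higher; edgeR adjusted p = 4.82e-05), and 22.3% of genes tested had a larger rise.

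NR1H3 encodes LXR-alpha, which is prominent in liver and macrophages. It was scarce in these cells, at 6.98, 7.90 and 5.78 CPM in shPHF19 libraries, against 4.49, 7.48 and 7.78 CPM in control libraries. NR1H3 lies on the plus strand of chromosome 11 (47248300 to 47269032). The groups overlapped, and the log2 fold change was 0.07 (SE 0.211; edgeR adjusted p = 0.802). With 84 to 122 counts in shPHF19 libraries and 73 to 127 counts in control libraries, no difference was detectable, which does not show that there was none. The direction of its log2 fold change also turned with library totals only (-0.14), with upper-quartile factors (-0.04), without shPHF19 replicate 2 (-0.04) and without control replicate 1 (-0.15), and no setting called it. Its exons overlap those of ACP2 on the opposite strand, which had 28.2 ± 2.71 CPM in shPHF19 cells and 22.6 ± 1.39 CPM in control cells (SD, n = 3 each). ACP2 was called higher (0.32, edgeR adjusted p = 0.0238), with no overlap between the groups. The strand setting of the counting is unknown, and the effect of the shared exon sequence on the NR1H3 counts was not tested. NR1H3 over NR1H2 was 0.0774, 0.0898 and 0.0709 in shPHF19 libraries, against 0.0744, 0.1099 and 0.127 in control libraries (log2 difference -0.36, SE 0.251; exact permutation p = 0.3, also after adjustment).

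MYLIP is induced by LXRs and lowers lipoprotein receptors at the cell surface. It stood at 53.0, 61.7 and 55.4 CPM in shPHF19 libraries, against 70.8, 66.2 and 65.6 CPM in control libraries. The groups did not overlap, but the highest shPHF19 value was close to the lowest control value. MYLIP lies on the plus strand of chromosome 6 (16129125 to 16148248). The log2 fold change was -0.25 (SE 0.0978; 1.19-fold lower; edgeR adjusted p = 0.0243). This call was lost under 5 of the 14 alternatives, among them without shPHF19 replicate 1 (edgeR adjusted p = 0.0942), without shPHF19 replicate 3 (0.0638), without control replicate 1 (0.0797) and with no filter on low counts (0.0595). Its adjusted p was between 0.000124 and 0.0942 over the 14 alternatives, and the direction was lower under each. Of all genes tested, 69.7% had a larger absolute change.

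**Figure D3:**
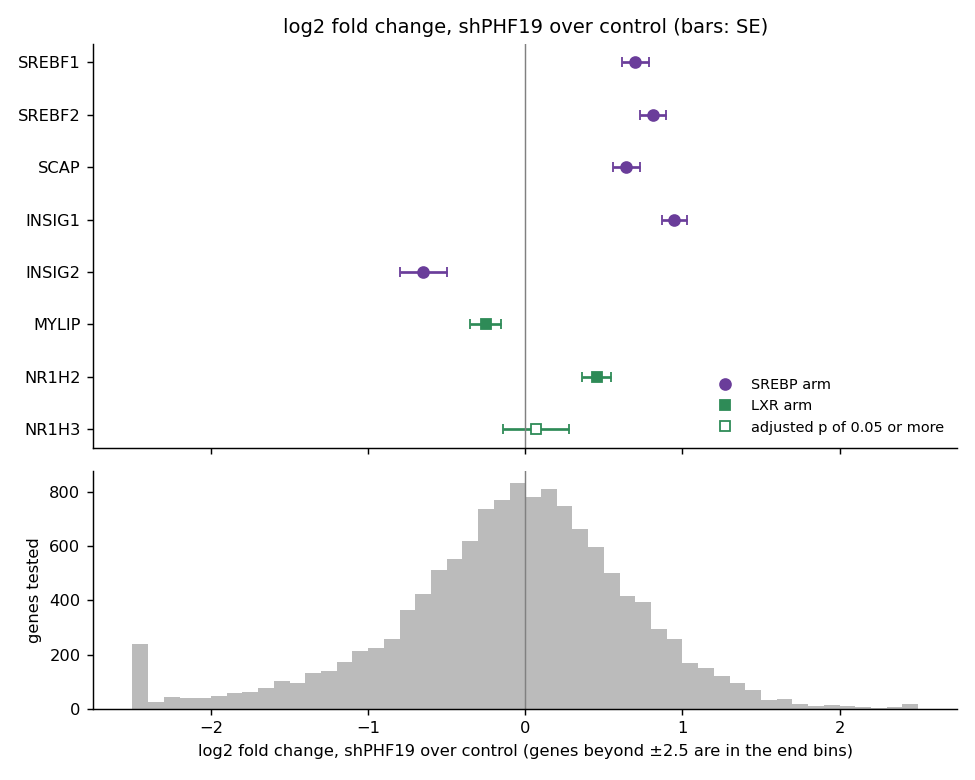
Upper panel, log2 fold change of each regulator, shPHF19 over control, with bars of 1 SE; circles are the SREBP arm, squares the LXR arm, and the open square did not pass the test. Lower panel, the same measure for all 13014 genes tested. The 4 SREBP arm genes that rose lie between 0.64 and 0.95, and INSIG2 lies at -0.65.

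The highest and lowest of the 8 by level were the same in both groups. On the scale of CPM per kilobase of exon (the union of all GENCODE 29 exons of a gene), INSIG1 was highest, at 188 ± 9.45 in shPHF19 cells and 97.5 ± 2.5 in control cells. SREBF2 was next, at 73.4 ± 5.06 in shPHF19 cells and 41.7 ± 2.3 in control cells. INSIG2 (2.83 ± 0.187 and 4.43 ± 0.287 in the same order of groups) and NR1H3 (1.52 ± 0.235 and 1.45 ± 0.402) were lowest (SD, n = 3 each throughout). Between these ends, the order in shPHF19 cells was SCAP (34.2), SREBF1 (26.5), NR1H2 (23.2) and MYLIP (18.7), and no neighbours overlapped. In control cells MYLIP (22.3) and SCAP (21.9) overlapped, as did NR1H2 (16.9) and SREBF1 (16.3). MYLIP thus stood below SCAP, SREBF1 and NR1H2 in shPHF19 cells, whereas in control cells it was above NR1H2 and SREBF1. The union of exons counts rare exons in full. The annotation used for the counting is not given, so these lengths may not match the exons counted. The levels, and the close order between the ends, are therefore approximate.

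The list of genes that carry SREBPs to the Golgi apparatus and cut them there held 14 genes besides SCAP, of which 4 were higher, 2 lower and 8 not called (29.4% and 30.9% of all genes tested were called higher and lower; no list was tested against these shares). The balance of this list turned with the scaling: with SCAP counted, 5 were higher and 2 lower as reported, against 4 and 3 with upper-quartile factors and 4 and 6 with library totals only. The site-1 protease gene MBTPS1, which makes the first cut, rose most. It was at 226, 230.5 and 238 CPM in shPHF19 libraries, against 87.8, 86.2 and 86.2 CPM in control libraries (log2 fold change 1.42, SE 0.0841; 2.67-fold higher; edgeR adjusted p = 1.5e-19). The site-2 protease gene MBTPS2 was at 24.8, 30.2 and 32.4 CPM in shPHF19 libraries, against 25.6, 25.2 and 27.8 CPM in control libraries, and was not called (0.16; edgeR adjusted p = 0.28). Among the coat genes of the vesicles that leave the endoplasmic reticulum, SEC13 (0.74) and SEC24D (0.69) rose while SAR1B (-0.52) and SEC24A (-0.31) fell. SEC24A lost its call without shPHF19 replicate 1 (-0.22) or 2 (-0.29), without control replicate 1 (-0.24) or 2 (-0.26), with no filter on low counts (-0.29) and in DESeq2 (-0.29).

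Among 13 genes of INSIG and SREBP turnover other than the INSIG genes, 6 were higher, 2 lower and 5 not called, so the share called was near the 60.2% of all genes tested. VCP, the ATPase that pulls ubiquitinated proteins out of the membrane, was at 864 ± 45.3 CPM in shPHF19 cells and 391 ± 16.3 CPM in control cells (log2 fold change 1.14; SD, n = 3 each). Its cofactor UFD1L rose as well (0.78). ERLIN2, a membrane protein that takes part in sterol-dependent degradation (-0.36), and FAF2, which recruits VCP to the membrane (-0.32), fell. ERLIN1, from the same list, went the other way (0.28, edgeR adjusted p = 0.00364) and was named after its value was seen.

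Enzymes of sterol synthesis are known as SREBP targets. All 20 listed were tested and all 20 were called higher with the scaling used here, with a median log2 fold change of 1.34, beside 0.81 for SREBF2. With upper-quartile factors 18 were called higher and with library totals only 17, and none was called lower under either. Examples were FDPS (1.96) and DHCR7 (1.92), both enzymes of the pathway. Of 16 fatty acid synthesis genes 10 were higher, 2 lower and 4 not called, with a median of 0.60, beside 0.70 for SREBF1. FASN (fatty acid synthase, 2.57), ACLY (ATP citrate lyase, 1.64) and FADS2 (a fatty acid desaturase, 1.21) were the clearest rises. MID1IP1, which promotes assembly of acetyl-CoA carboxylase (-0.75), and LPIN1, a phosphatidate phosphatase (-0.26), fell. LPIN1 lost its call without shPHF19 replicate 1 (-0.21) or 2 (-0.25) or without control replicate 3 (-0.21). Over all genes tested, 29.4% were called higher and 30.9% lower, and neither list was tested against these shares. Genes of lipid synthesis were known from earlier results to be higher in these libraries, so the counts of both lists are no independent evidence.

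The list of LXR targets split evenly and was mostly out of reach of the test. Of 22 listed genes 10 passed the filter. Without SREBF1, MYLIP and NR1H3, which are among the 8, there were 7, of which 2 were higher, 2 lower and 3 not called. This is near the shares over all genes tested (29.4% higher and 30.9% lower), so the calls do not set the list apart. The 2 lower genes, ABCA1 and MERTK, passed the filter only with the control libraries, where they were higher. At such levels a gene enters the test only if 1 group is high, so these 2 calls are description only. PLTP, a phospholipid transfer protein, rose to 124, 111 and 100.2 CPM in shPHF19 libraries, against 54.3, 61.5 and 60.2 CPM in control libraries (log2 fold change 0.93; edgeR adjusted p = 9.98e-12). LPCAT3, which puts polyunsaturated chains into phospholipids, rose too (0.79; edgeR adjusted p = 2.94e-10).

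The cholesterol exporter gene ABCA1 was scarce, with 0.594, 0.324 and 0.344 CPM in shPHF19 libraries, against 0.861, 1.77 and 1.17 CPM in control libraries. It was called lower on 18 counts in shPHF19 libraries together and 62 in control libraries together (-1.59, SE 0.544; edgeR adjusted p = 0.0106). That call was lost without shPHF19 replicate 2 (-1.42) or without control replicate 2 (-1.25). MERTK, a receptor for dying cells, had 25 counts in shPHF19 libraries and 110 in control libraries (-1.95, SE 0.467; edgeR adjusted p = 0.000343). ABCG1, a second exporter (-0.99, SE 0.489; edgeR adjusted p = 0.0761), and LBR, the lamin B receptor (-0.12), were not called. Both were called lower with library totals only (-1.20 for ABCG1 and -0.33 for LBR) and with upper-quartile factors (-1.10 and -0.23). ABCG1 was also called without control replicate 1 (-1.24) and LBR without shPHF19 replicate 3 (-0.21). Under a stricter filter on low counts, ABCA1 and ABCG1 were not tested. APOE was at 0.830 CPM in shPHF19 cells and 1.21 CPM in control cells and was not called either (-0.54, edgeR adjusted p = 0.324). Its groups did not overlap. Of the 12 LXR targets that were not tested, APOC2 and APOC4 had 0 counts in all 6 libraries, which allows up to 0.177 to 0.223 CPM in a library for counting error.

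ABCA1, ABCG1, MERTK and NR1H3 are also macrophage genes, and macrophage markers differed between the groups. Of 12 listed monocyte and macrophage markers 7 were tested, with 5 lower, 1 higher and 1 not called. Beside this, 30.9% of all genes tested were called lower and 29.4% higher, and the list was not tested against these shares. The summed level of all 12 was 59.9 to 64.4 CPM in shPHF19 libraries and 191 to 207 CPM in control libraries. ITGAM (3.80 CPM in shPHF19 cells and 34.4 CPM in control cells), ITGAX (5.49 and 31.9), FCGR1A (16.8 and 50.1), LYZ (13.9 and 40.3) and CD68 (9.01 and 27.9) fell, given in the same order of groups. CSF1R (11.6 and 13.8) was not called. FCN1 was called higher on 43 counts in shPHF19 libraries together and 1 in control libraries together. It passed the filter only through the shPHF19 libraries, so this call is description only. MSR1 was at 0 in all libraries, and CD14 averaged 0.0679 CPM in shPHF19 cells and 0.0845 CPM in control cells. The part of this difference in the LXR results was not tested.

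Of 9 LXR partners and cofactors tested, 1 was higher, 6 lower and 2 not called, beside 30.9% of all genes tested called lower, with a median log2 fold change of -0.36. Among the retinoid X receptors that pair with LXRs, RXRB rose to 105.9 ± 5.91 CPM in shPHF19 cells, against 82.7 ± 3.43 CPM in control cells (0.36; edgeR adjusted p = 0.000596), a call lost with library totals only (0.15). RXRA was at 80.3 ± 2.07 CPM in shPHF19 cells and 85.7 ± 2.01 CPM in control cells and was not called (-0.09; edgeR adjusted p = 0.38; SD, n = 3 each for both genes), but was called lower with library totals only (-0.30). RXRG had 1 count in shPHF19 libraries and 0 in control libraries. The coactivators NCOA3 (-0.97) and NCOA2 (-0.88) and the corepressor NCOR1 (-0.99) fell.

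**Figure D4:**
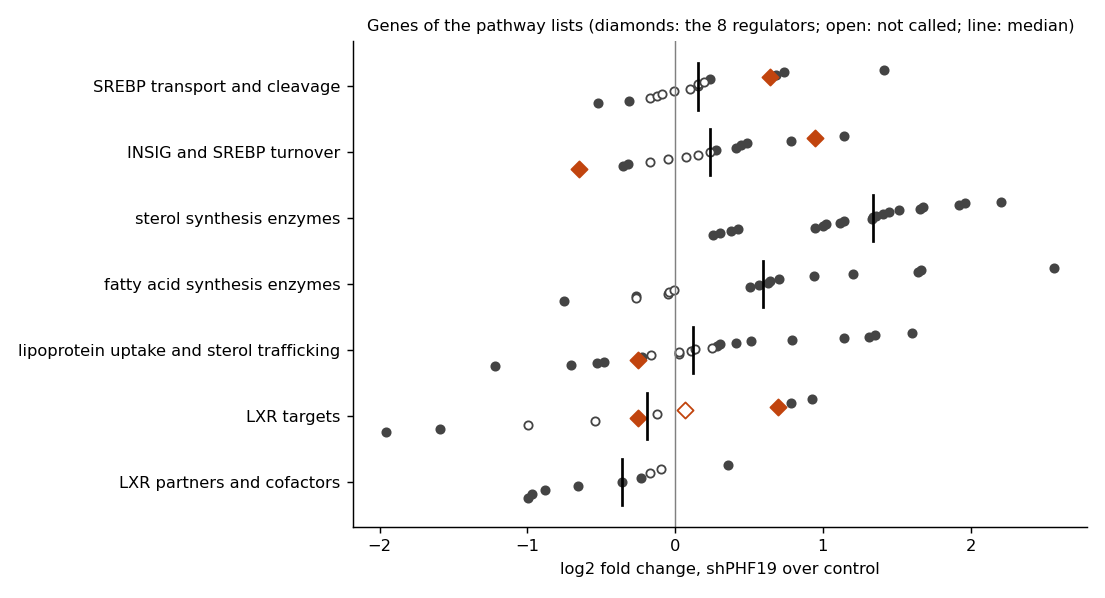
Log2 fold change, shPHF19 over control, of each tested gene in 7 pathway lists; diamonds are the regulators themselves, open symbols did not pass the test, and the vertical line in each row is the median. All 20 sterol synthesis enzymes lie right of 0, while LXR partners and cofactors lie mostly left of it.

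Genes of lipoprotein uptake and sterol trafficking moved in both directions. Of 21 tested besides MYLIP, 9 were higher, 6 lower and 6 not called, beside 29.4% higher and 30.9% lower of all genes tested. LRP8 and VLDLR, related lipoprotein receptors that MYLIP is known to target at the protein level, went opposite ways. LRP8 was at 118, 118 and 119 CPM in shPHF19 libraries, against 42.6, 33.2 and 41.3 CPM in control libraries (log2 fold change 1.60; edgeR adjusted p = 5.99e-19). VLDLR was at 26.6, 30.7 and 34.1 CPM in shPHF19 libraries, against 75.9, 63.5 and 73.8 CPM in control libraries (-1.22; edgeR adjusted p = 1.41e-13). The high-density lipoprotein receptor gene SCARB1 (1.31) and TMEM97, a membrane protein tied to sterol trafficking (1.36), rose.

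The ubiquitin-conjugating enzymes that MYLIP works with were lower or not called, beside 30.9% of all genes tested called lower. A link to the level of MYLIP was not tested. UBE2D2 fell to 112 ± 5.13 CPM in shPHF19 cells, against 161 ± 5.81 CPM in control cells (-0.53; SD, n = 3 each; edgeR adjusted p = 6.03e-07). UBE2D1 (-0.48; edgeR adjusted p = 0.00645) fell and UBE2D3 (-0.16; edgeR adjusted p = 0.0772) was not called, both named after their values were seen. UBE2D1 lost its call without shPHF19 replicate 1 (-0.32) or control replicate 1 (-0.36), and UBE2D3 was called with upper-quartile factors (-0.27) and with library totals only (-0.37).

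The genes with the profile most like INSIG1 over the 6 libraries were WDFY2, ERO1L and NCAPH. Their root mean square differences from it were 0.0133, 0.0181 and 0.0331 on the mean-centred log2 CPM scale, among 10340 genes compared. For INSIG2 they were PAFAH2 (0.0403), SLC31A1 (0.0406) and ZNF768 (0.0433). With 6 libraries in 2 groups, this likeness reflects mainly the size of the difference between the groups.

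The authors' deposited table of their own comparison holds 6 of the 8 genes, and its largest adjusted p is 0.00993. The authors' deposited table gives log2 fold changes of 0.96 for INSIG1, 0.83 for SREBF2, 0.71 for SREBF1, 0.65 for SCAP, 0.46 for NR1H2 and -0.59 for INSIG2, each in the direction found here. That table belongs to the same series, so it is no independent evidence. MYLIP and NR1H3 are not among its 5740 genes.

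**Figure D5:**
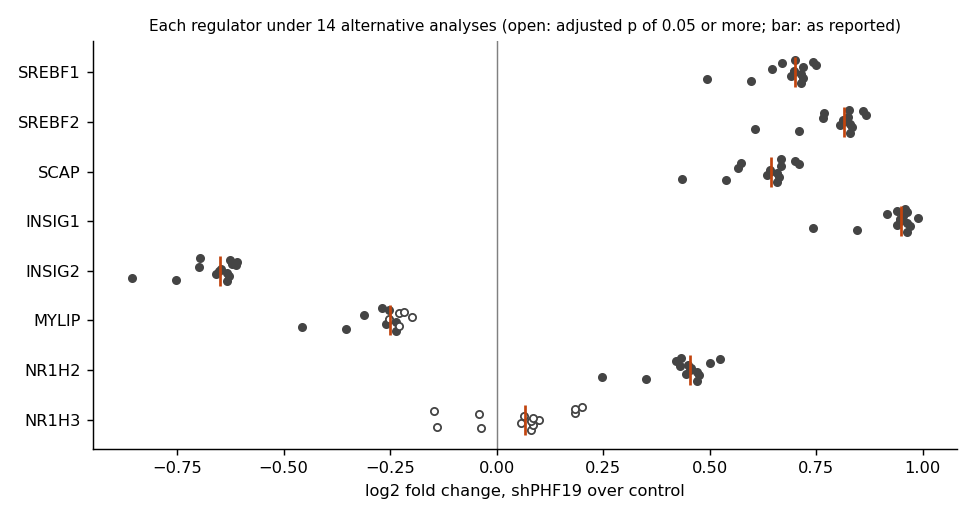
Log2 fold change, shPHF19 over control, of each regulator under 14 alternative analyses (points; open where the adjusted p was 0.05 or more) and as reported (vertical bar). The 4 SREBP arm genes that rose, NR1H2 and INSIG2 are called under all 14, MYLIP under 9 and NR1H3 under none.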

How the data were processed

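RNA-seq libraries of Kasumi-1 cells (3 shPHF19, 3 control, grouped by sample title) were prepared from total RNA (KAPA Hyper Prep), per the labels' protocols. HISAT2 2.1.0, HTSeq 0.11.2 and the build hg38 were used, per the submitters' processing notes, with annotation and strand setting not given in the sources used here. Raw counts per gene symbol were deposited by the authors. The authors also deposited a table of mean normalized signal, log2 fold changes with errors, and p-values; its tool is not given.

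Counts were tested here with edgeR 4.0.16 in R 4.3.3 (filterByExpr, TMM, robust quasi-likelihood F test, group as the only term). Adjustment over 13014 genes was by Benjamini-Hochberg, with a threshold of 0.05. The SE is the change over the square root of F. CPM were computed here from TMM-scaled library sizes. Ratios used counts plus 0.5. Alternatives used DESeq2 1.42.0, limma 3.58.1 (voom), other scalings and filters, a replicate block and each library left out. The fit was tested on simulated data in which few genes changed, as many up as down. In these libraries 60.2% of genes tested were called, so that simulation cannot check the scaling. Exon lengths came from GENCODE 29, and sequences from RefSeq, which matched all 8 genes by symbol.

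The 8 genes and the pathway lists were chosen with earlier results of these data known. Named genes are the 8, PHF19, MBTPS1, MBTPS2, the RXR genes, up to 3 called genes in each list and direction with the smallest adjusted p, every tested LXR target, and the 3 nearest profiles of the largest rise and fall among genes of at least 5 CPM. Not every gene under the rule is reported. Lists had one entry per gene; names absent from the table were dropped. Within groups, pairs of libraries differed beyond sampling noise (chi-square per degree of freedom 4.63 to 11.7). A count of 0 allows up to 3 counts, or 0.177 to 0.223 CPM in these libraries.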

Additional observations from a re-analysis of the deposited data

How the results depend on the processing

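SREBF1, SREBF2, SCAP, INSIG1, INSIG2 and NR1H2 kept their direction and their call under all 14 alternatives. The calls in the LXR arm dropped to 1 of 3, NR1H2, with no filter on low counts, with the replicate block and when some libraries were left out (1 to 2 over the 6 libraries left out in turn), because MYLIP was lost. MYLIP was at -0.23 with no filter (edgeR adjusted p = 0.0595) and at -0.25 with the replicate block (edgeR adjusted p = 0.0645), and at -0.31 to -0.20 with each library left out; the cause was not tested. Replicate numbers did not pair the libraries (correlations of same-numbered deviations -0.45, -0.05 and -0.12 over 10341 genes), and the block changed no other call among the 8; RAI1 lost its call with it (-0.27; edgeR adjusted p = 0.0625). Scaled by library totals only, the median over all genes tested was a log2 fold change of -0.24, a shift of over 0.1 from -0.03, and with upper-quartile factors it was -0.14. SREBF2 was then 0.61 and 0.71, NR1H2 0.25 and 0.35, and MYLIP -0.46 and -0.35, in the same order of settings. With library totals only, 2590 genes were called higher and 5624 lower, in place of 3820 and 4015. Total counts of calls, both directions together, over all genes and over the 7 pathway lists stayed within 1.5 times their reported values under each alternative, and no called gene among those named changed direction; the ratios between paralogues kept their direction. Within lists the split moved more. With library totals only, lower calls were 6 in place of 2 for SREBP transport and cleavage, 5 in place of 3 for INSIG and SREBP turnover, 5 in place of 3 for LXR targets (also with upper-quartile factors) and 4 in place of 2 for fatty acid synthesis, and higher calls were 0 in place of 1 for LXR partners and cofactors and 6 in place of 9 for lipoprotein uptake (regulators counted in their lists). Lower calls for lipoprotein uptake were 4 in place of 7 with the replicate block. Some settings, such as those without shPHF19 replicate 1, left 1 lower call in place of 2 in the transport and fatty acid lists. Low counts limit the precision of NR1H3, ABCA1, ABCG1, APOE and MERTK.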
